A study of Mus musculus with 3 samples.

Results

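The genes of the proteasome, the particle that degrades ubiquitin-tagged proteins, were followed in SB28, a mouse glioblastoma line. Members were all gene symbols in the count tables that start with Psm, go on with one letter from a to g and a number, and may end in lower-case letters. This rule matched 50 of 24421 gene lines. They held 7 α and 7 constitutive β subunits of the core particle, 3 inducible catalytic β subunits, the testis α form Psma8 and the thymus β form Psmb11. They also held 17 subunits of the regulatory particle, 3 assembly chaperones of that particle (Psmd5, Psmd9 and Psmd10), 4 assembly chaperones of the core (Psmg1 to Psmg4), 4 activator genes and the inhibitor gene Psmf1. The last 2 matches are not subunits of the standard particle. Psmc3ip encodes a partner of the meiotic recombinases that was named for its binding to an ATPase subunit, and Psme2b is a near copy of the activator gene Psme2.

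RNA-seq of SB28 was deposited as 3 libraries of 1 group, on the C57BL/6 background, with brain as the labelled source. No control line, treatment, culture condition or passage is labelled. SB28 is a line from a mouse brain tumour that was started with a transposon system carrying activated NRAS, PDGF and a hairpin against p53. Nothing says that the libraries came from separate cultures, so SDs and p-values here reflect these samples alone and their spread may be technical. Between 28990128 and 36019009 counts per library were assigned to genes. Levels are counts per 1000000 of these counts (CPM), as mean ± SD with n = 3 unless stated, and 3 values of a gene stand in the order of replicates 1, 2 and 3. Of 8 glioma line genes checked, 6 were detected, with the filament genes Vim at 5404 ± 100 CPM and Nes at 427 ± 20.2 CPM, while the glial genes Gfap and Olig2 had 0 counts. Replicate 3 stood apart. Its counts differed beyond counting noise from those of replicate 1 in 64.0% and from those of replicate 2 in 62.9% of the genes tested, while replicates 1 and 2 differed from each other in 2.01%.

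The core particle is a barrel of stacked rings in which outer α subunits gate entry and inner β subunits hold the proteolytic sites. The regulatory particle caps the barrel, its lid and base receiving and de-ubiquitinating substrates and its ATPases unfolding them. In cells exposed to interferon-γ, Psmb8, Psmb9 and Psmb10 are made and take the places of Psmb5, Psmb6 and Psmb7, giving the immunoproteasome. Psme1 and Psme2, the chains of the ring-shaped activator PA28αβ, are induced with them. The altered cleavage favours peptides that fit class I MHC molecules, which is why these genes are followed in tumour lines used to study immunity.

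The inducible catalytic genes and their constitutive counterparts are transcribed from separate promoters, and those of 3 of these genes are shown. They form no complete pair, because Psmb7 had no window and those of Psmb8 and Psmb9 are not shown. No inducible gene is therefore compared with its own counterpart here. The windows are the 250 bases before each RefSeq start on GRCm38.p6, the assembly that mm10 names, cut back to the bases outside annotated exons and written in the direction of transcription. The inducible Psmb10 is shown at chr8:105938445-105938642 (minus strand), and the constitutive Psmb5 at chr14:54618023-54618245 (minus strand) and Psmb6 at chr11:70525107-70525356 (plus strand). Matches on both strands of the full windows are given for 2 of the motifs searched, the interferon regulatory factor core (GAAA, any 2 bases, and GAAA again) and the antioxidant response core TGACNNNGC. Capitals mark the matches.
Psmb10: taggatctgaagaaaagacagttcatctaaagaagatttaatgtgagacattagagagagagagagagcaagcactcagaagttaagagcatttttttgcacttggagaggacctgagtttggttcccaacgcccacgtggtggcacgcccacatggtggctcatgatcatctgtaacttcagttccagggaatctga
Psmb5: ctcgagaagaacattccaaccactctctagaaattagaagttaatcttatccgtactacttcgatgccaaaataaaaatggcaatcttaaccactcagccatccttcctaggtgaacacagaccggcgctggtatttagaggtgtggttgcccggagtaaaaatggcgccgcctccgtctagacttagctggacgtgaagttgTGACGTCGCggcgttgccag
Psmb6: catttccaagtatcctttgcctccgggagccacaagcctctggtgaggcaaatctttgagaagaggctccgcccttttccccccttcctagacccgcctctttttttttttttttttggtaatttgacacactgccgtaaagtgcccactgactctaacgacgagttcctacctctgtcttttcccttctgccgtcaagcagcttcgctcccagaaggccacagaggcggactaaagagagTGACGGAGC

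The Psmb10 window held no match to either of them. Those of Psmb5 and Psmb6 each held 1 match to the antioxidant response core, 47 to 39 and 9 to 1 bases before the start. The other constitutive core genes with a window, Psma1 to Psma7, Psmb3 and Psmb4, held no match to that core. Its presence therefore does not set constitutive genes apart from inducible ones. The windows of Psmb8 and Psmb9, in the MHC on chromosome 17, lie wholly inside exons of the GENCODE annotation, which starts both genes farther upstream, and are not shown. Over 32851 RefSeq windows of the same length, 2.98% held the interferon regulatory factor core and 10.2% the antioxidant response core. Of the 45 windows of the 42 members with a RefSeq sequence, 3 (6.67%) held the first and 5 (11.1%) the second. Those with the first were the windows of Psmb3, Psmd4 and Psmd9, none of them among the inducible genes. Those with the second were the windows of Psmb5, Psmb6, Psmc6, Psmd9 and Psmd12. A match describes letters and is not a bound site. The annotated start of Tap1, which encodes a chain of the peptide transporter and runs the other way, lies at position 34187553 inside the Psmb9 window.

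Transcripts of the standard proteasome were abundant, and those of the tissue forms and of the inducible Psmb8 and Psmb9 were not. The other inducible genes, Psmb10, Psme1 and Psme2, averaged 14.6, 46.1 and 56.0 CPM. Of the 50 genes, 45 were detected, meaning that no library fell under 1 CPM, against 46.6% of all gene lines. All 14 constitutive core subunits, all 17 regulatory particle subunits and all 7 assembly chaperones were among them. The 4 genes below 1 CPM in every library were Psmb8, Psmb9, Psmb11 and Psma8, and Psme2b lay on both sides of it. The median member stood at 134 CPM, against 29.3 CPM over the 12737 genes that averaged 10 counts or more. Together the 50 genes held 0.652%, 0.648% and 0.685% of the counts of replicates 1, 2 and 3.

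**Figure D1:**
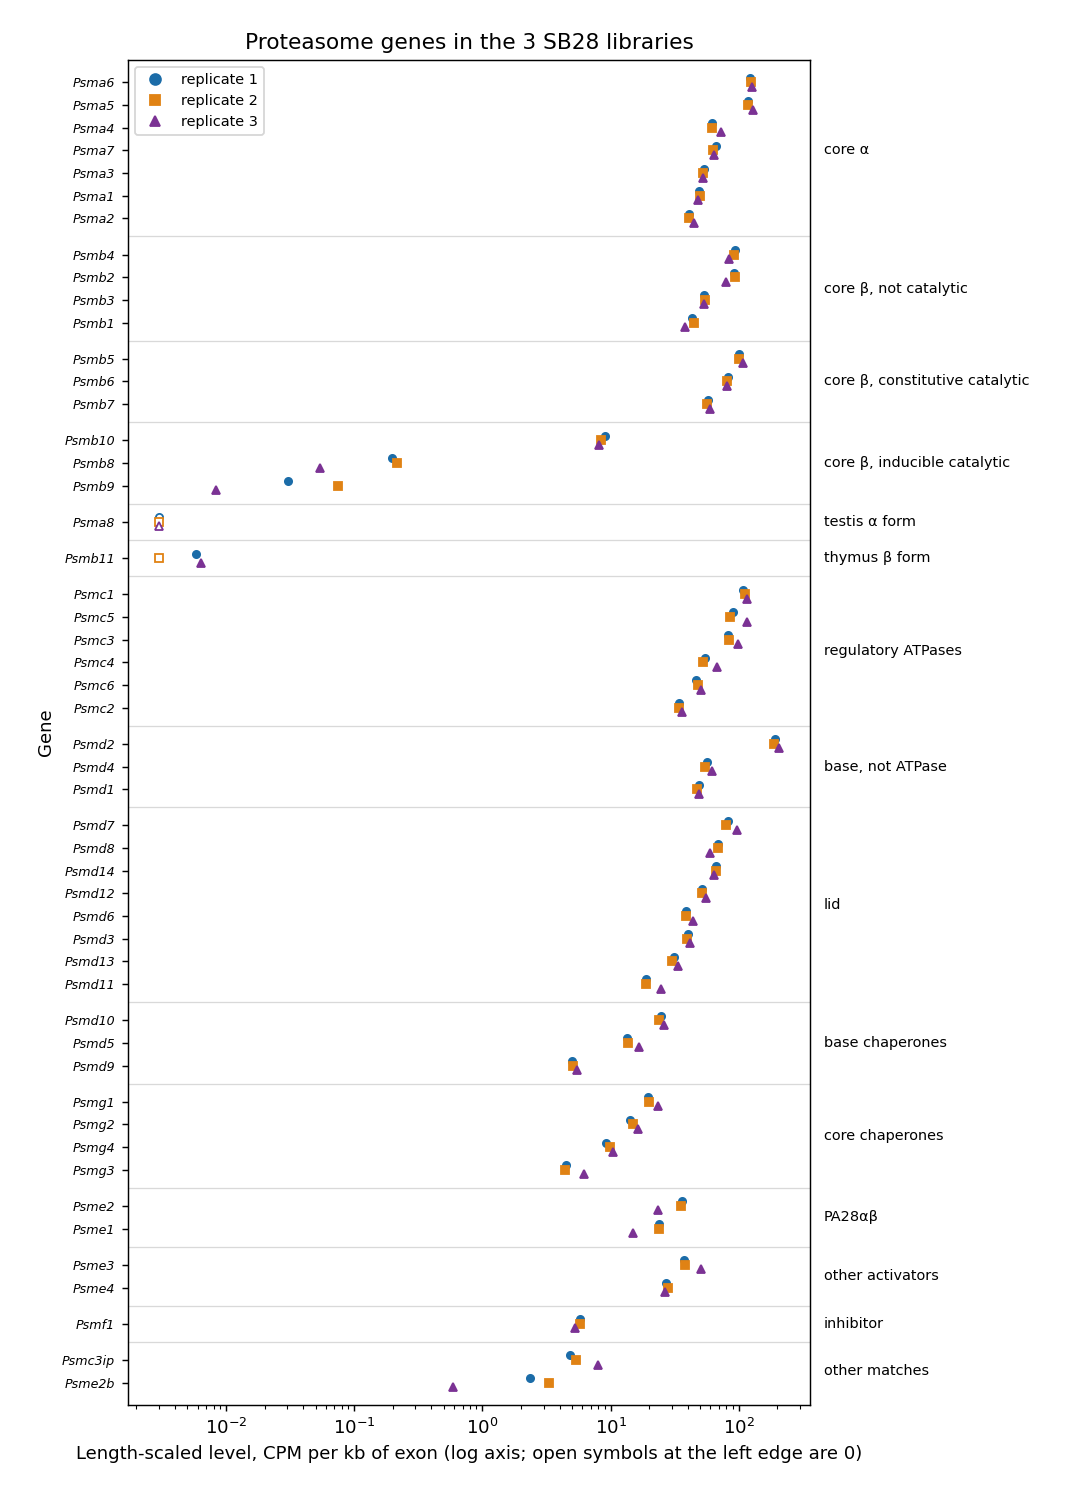
Length-scaled level (CPM per kb of annotated exon, log axis) of the 50 genes in each of the 3 libraries, grouped by role, with each library as its own symbol. The constitutive core genes averaged between 42.0 and 124 CPM per kb, while Psmb8, Psmb9 and Psmb11 lay below 1 and Psma8 had no counts.

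The 7 α subunits form the outer rings of the core. Each averaged between 145 and 206 CPM, a narrow range. Psma3 was the highest by CPM, at 207, 206 and 206, and its 3 values were nearly equal. Psma1 was the lowest, at 145, 146 and 143 CPM. Per kb of exon, Psma6 (124 ± 2.36) and Psma5 (122 ± 6.30) led and Psma2 (42.0 ± 2.19) was the lowest, and the first pair did not differ by more than its spread between libraries. With the length of the main annotated transcript of each gene, Psma7 led instead, at 217. The testis form Psma8, which replaces Psma7 in male germ cells, had 0 counts in each library, where a count of 0 leaves room for 0.0833 to 0.103 CPM. Against a limit of 3 counts over the 3 libraries, Psma8 was at least 5252-fold lower than Psma7 per base of exon.

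The β subunits that do not cut, Psmb1 to Psmb4, averaged between 106 and 194 CPM. Psmb5, which carries the chymotrypsin-like site, had 90.0, 90.2 and 97.2 CPM. Psmb6, the caspase-like site, had 154, 151 and 151 CPM, and Psmb7, the trypsin-like site, had 198, 194 and 206 CPM. Per kb of exon, Psmb5 stood highest at 103 ± 4.58, then Psmb6 at 81.1 ± 0.963 and Psmb7 at 58.2 ± 1.81, but with the main transcript length Psmb5 was the lowest at 103, against 190.2 for Psmb6 and 172 for Psmb7. Which catalytic transcript was the most abundant therefore rests on the length used. Over the whole constitutive core, the highest gene stood 2.96-fold above the lowest per kb of exon, and 4.10-fold with the main transcript length. The sum over these 14 genes was 2212, 2211 and 2222 CPM in replicates 1, 2 and 3, a spread of 6.23 CPM around 2215. Its parts were less steady and moved in opposite directions in replicate 3. The α subunits summed to 1156, 1152 and 1210 CPM, the catalytic β subunits to 442, 435 and 454, and Psmb1 to Psmb4 to 614, 624 and 558. Sequence copies limit some of these levels. Of the 50-base stretches of Psmb5, 47.4% also occur in transcripts of genes elsewhere, chiefly the processed pseudogene Gm3375, and for Psma5 the share was 49.1%. Reads placed at more than one position are kept apart in the deposited files, at 3027069 to 3790948 a library, so the levels of Psmb5 and Psma5 are uncertain.

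The inducible catalytic subunits were far below the subunits whose places they take, and they differed widely among themselves. Psmb8 had 24, 21 and 6 counts, or 0.666, 0.724 and 0.184 CPM. With an exact 95% Poisson interval, which covers counting error only, the 3 values ran from 0.427 to 0.991, from 0.448 to 1.11 and from 0.0675 to 0.400 CPM. Replicate 3 was the low one, and its interval did not reach those of the other two. Psmb9 had 4, 8 and 1 counts, or 0.111, 0.276 and 0.0306 CPM, and over the 3 libraries its interval was 0.0709 to 0.228 CPM. It was the lowest of the 3 inducible subunits in every library. Psmb10 had 559, 419 and 454 counts, or 15.5, 14.5 and 13.9 CPM, and was the only one of the 3 to be detected.

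Set against its counterpart per kb of exon, Psmb8 lay below Psmb5 by −8.96, −8.84 and −10.84 on the log2 scale with 0.5 counts added. Psmb8 was lower in all 3 libraries, with a mean of −9.55 ± 1.12, or 748-fold. The difference was larger than the spread between replicates, a term used where the 3 libraries share a sign and the mean is over 2 SD from 0. It was 477-fold without replicate 3, 360-fold with the main transcript length, 422-fold when the longest transcript set the length, and 199-fold without length correction. From the pooled counts, 51 against 9030, it was 666-fold (exact 95% interval 506 to 895, counting error only). Psmb9 lay below Psmb6 by −11.28 ± 1.34, or 2495-fold, with 1007-fold in replicate 2 and 6407-fold in replicate 3 as the extremes. The size was 1557-fold without replicate 3, 3928-fold without replicate 2, 3810-fold by the longest transcript and 1276-fold without length correction. Psmb10 lay only 6.78-fold below Psmb7 (−2.76 ± 0.11), with 6.34-fold in replicate 1, 6.67-fold in replicate 2 and 7.37-fold in replicate 3. This became 15.4-fold with the main transcript length and 13.6-fold without length correction. Both differences were larger than the spread.

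As a share of each pair per kb of exon, Psmb8 made up 0.197%, 0.213% and 0.0503% of Psmb8 plus Psmb5. Psmb9 made up 0.0369%, 0.0934% and 0.0104% of Psmb9 plus Psmb6. Psmb10 made up 13.6%, 13.0% and 11.9% of Psmb10 plus Psmb7. Transcripts of the 3 inducible subunits, which enter the same particle, were therefore present in unequal amounts. The proteins were not measured. Psmb10 exceeded Psmb8 by 62.4-fold per kb (5.96 ± 1.004 on the log2 scale) and Psmb8 exceeded Psmb9 by 4.23-fold (2.08 ± 0.57). Both differences were larger than the spread. The first was 41.9-fold without replicate 3 and 31.5-fold without length correction, and 39.1-fold with the main transcript length. The annotation has 212 bases of Psmb9 exon on the opposite strand of Tap1 and 498 bases of Psmb8 exon on the opposite strand of the antisense gene Gm20496. The strand setting of the counting is not given in the sources used here, so reads there cannot be told apart.

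**Figure D2:**
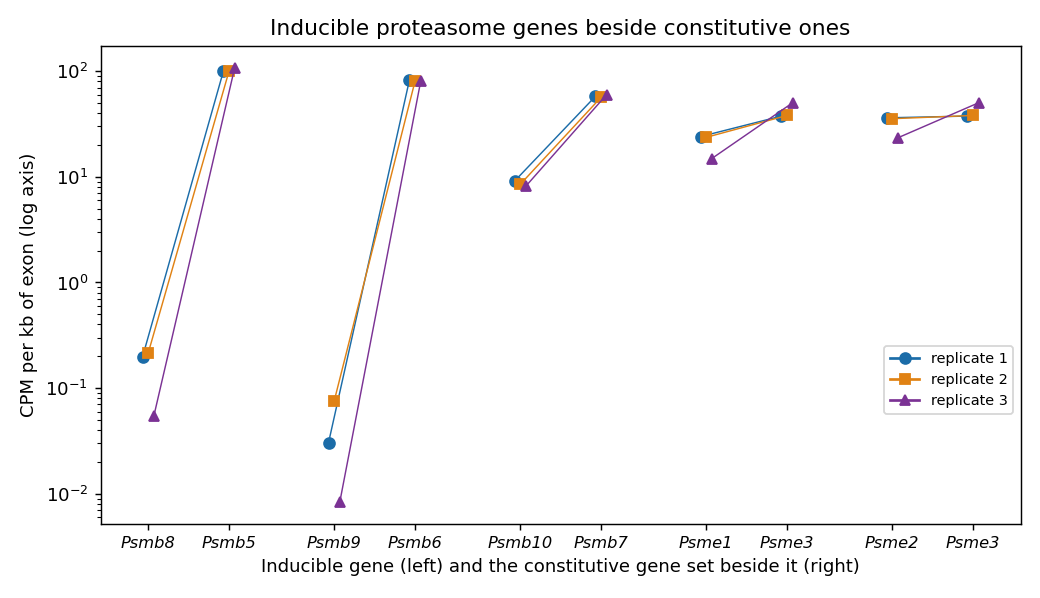
Length-scaled level (CPM per kb of exon, log axis) of each inducible gene, on the left of its pair, and of the constitutive gene set beside it, with one line per library. All 3 lines fall steeply to the left for Psmb8 and Psmb9, which lay below 1 CPM per kb, while Psmb10 averaged 8.58 and the lines for Psme1 and Psme2 are shallow or cross.

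The thymus form Psmb11, which takes the place of Psmb5 in the thymic cortex, had 1, 0 and 1 counts. From the pooled counts it was 24062-fold lower than Psmb5 per base of exon, with an exact interval from 6659 to 198715 that covers counting error only. These 2 counts do not separate expression from stray reads.

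The activators were all detected. The inducible PA28αβ pair stood far above Psmb8 and Psmb9 and nearer to Psmb10. Per kb of exon, Psmb10 averaged 8.58, Psme1 20.9 and Psme2 31.7. Psme1, the α chain of PA28αβ, had 53.1, 52.3 and 32.9 CPM. Psme2, its β chain, had 63.9, 62.7 and 41.3 CPM. In both genes replicate 3 was the low one. Their ratio hardly moved: Psme1 lay below Psme2 per kb by −0.59, −0.59 and −0.65 on the log2 scale, a mean of −0.61 ± 0.04 or 1.53-fold, larger than the spread. It was 2.51-fold when the longest transcript set the length, 1.41-fold with the main transcript length and 1.22-fold without length correction. Its size therefore rests on the length used. Of the 50-base stretches of Psme2, 28.3% are shared with Psme2b, so the level of Psme2 is uncertain.

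Psme3 encodes the separate nuclear activator PA28γ, which interferon-γ does not induce. It had 111, 112 and 148 CPM and was highest in replicate 3, the opposite of Psme1 and Psme2. Psme1 lay below Psme3 per kb by −1.03 ± 0.63 on the log2 scale, and Psme2 by −0.42 ± 0.59, neither larger than the spread. Without replicate 3 both were, at −0.67 and −0.078, and with the main transcript length Psme2 lay above Psme3, at 0.31, while Psme1 came to −0.19 with libraries on both sides of 0. Psme4, which encodes the large activator PA200, had 227, 236 and 224 CPM, close to level. Per kb it lay below Psme3 by −0.61 ± 0.26, larger than the spread. That call was lost with the main or the longest transcript length (−0.39), and without length correction Psme4 was higher (0.90).

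The regulatory particle was expressed near the level of the core. Its ATPases, Psmc1 to Psmc6, which unfold the substrate, averaged between 126 and 230 CPM, with Psmc3 highest (216, 219 and 256) and Psmc4 lowest (117, 114 and 146). In all 6, replicate 3 was the high one. The lid, which holds the deubiquitinase Psmd14 (188, 186 and 181 CPM), averaged between 107 and 202 CPM a gene. The base scaffold Psmd2, which docks ubiquitin shuttles, had 775, 760 and 834 CPM and was the most abundant of the 50 genes by CPM and by CPM per kb (196 ± 9.75). Of its 50-base stretches, 17.8% occur elsewhere, chiefly in the transcribed pseudogene Gm5422. The scaffold Psmd1 had 355, 342 and 358 CPM and the ubiquitin receptor Psmd4 had 159, 152 and 173 CPM.

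Between the parts of the particle, the median of the 17 regulatory subunits lay below that of the 14 constitutive core subunits by −0.23, −0.24 and −0.19 on the log2(CPM per kb + 1) scale. The mean of −0.22 ± 0.03 was larger than the spread, but without length correction the regulatory subunits were higher (0.16), so the order of the particles rests on gene length. The core assembly chaperones Psmg1 to Psmg4 lay below the core they help to build by −2.31 ± 0.05, larger than the spread, and by −3.00 when the longest transcript set the length or −2.94 without length correction. Psmg1, which pairs with Psmg2 to assemble the α ring, had 26.3, 26.8 and 31.6 CPM and Psmg2 had 24.8, 25.9 and 28.3 CPM. Psmg3 (12.9, 12.8 and 17.96) and Psmg4 (5.14, 5.48 and 5.82), the second chaperone pair, were lower. The chaperones of the base stood at 97.4, 99.8 and 121 CPM for Psmd5, 36.6, 35.2 and 38.2 CPM for Psmd10, known as gankyrin, and 35.98, 36.6 and 39.7 CPM for Psmd9. The inhibitor gene Psmf1 had 37.0, 37.5 and 33.8 CPM.

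The 3 libraries were then set against counting noise by chi-square on each gene's 3 counts after TMM scaling and Benjamini-Hochberg adjustment over all 12737 genes tested. The test compares these libraries and no conditions. Of the 50 genes, 47 could be tested and 36 varied beyond counting noise, against 65.7% of all genes tested. Of the 47, 27 varied with replicate 3 as the highest library, against 33.1% of all genes tested, and 9 with replicate 3 as the lowest, against 31.5%. Most of the differences were small. The median ratio of the highest to the lowest library was 1.11 over the tested members and 1.23 over all genes tested. Counting noise widens this ratio at low counts, and abundant genes pass the chi-square test more readily. The median member stood at 134 CPM against 29.3 CPM over all genes tested. Neither the ratio nor the shares here were matched for abundance. Only 5 members varied by 1.5-fold or more, against 18.3% of all genes tested. These were Psmb8, Psme1, Psme2, Psme2b and Psmc3ip. Replicate 3 was the lowest library in the first 4, against 10.7% of all genes tested for such a change, and the highest in Psmc3ip. Between replicates 1 and 2 alone, none of the 47 members passed after adjustment, by chi-square or by a Poisson likelihood ratio test. Of all genes tested, 2.01% did by chi-square. Without adjustment, 9 of the 47 had a p under 0.05 by either test, against 12.5% of all genes tested by chi-square. The calls among members therefore rest on replicate 3, while smaller differences between replicates 1 and 2 may exist.

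Most subunits of the regulatory particle varied in the same direction, 15 of 17 with replicate 3 highest, against 33.1% of all genes tested. All 6 ATPases, all 3 other base subunits and 6 of the 8 lid subunits varied with replicate 3 highest, while the lid subunit Psmd8 had 212, 211 and 184 CPM with replicate 3 lowest and Psmd14 did not pass the test. The largest ratios in this particle were those of Psmc5 (125, 119 and 161 CPM, 1.36-fold, adjusted p = 1.85e-54) and Psmd11, a lid scaffold (120, 122 and 159 CPM, 1.33-fold, adjusted p = 1.2e-54). Of the core, 3 α subunits (Psma2, Psma4 and Psma5) and the catalytic Psmb5 and Psmb7 were highest in replicate 3. Psmb1 (199.7, 207 and 176 CPM), Psmb2 (111, 112 and 95.5 CPM) and Psmb4 (181, 181 and 164 CPM) were lowest there. The other 6 constitutive core genes did not pass the test, so 8 of 14 varied, against 65.7% of all genes tested. No gene of the constitutive core or the regulatory particle reached 1.5-fold.

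Of the 5 inducible genes, 4 could be tested and 3 varied, all with replicate 3 lowest. Of all genes tested, 65.7% varied and 31.5% varied with replicate 3 lowest. Psme1 differed 1.60-fold between its highest and lowest library (adjusted p = 7.69e-39), Psme2 1.54-fold (adjusted p = 1.5e-39) and Psmb8 3.91-fold (adjusted p = 0.00824). Psmb10 differed 1.11-fold and did not pass (adjusted p = 0.287). Psmb9, with 13 counts in all, was too low to test. The near copy Psme2b had 1.97, 2.79 and 0.490 CPM and was also lowest in replicate 3 (adjusted p = 8.64e-11), but 68.7% of its 50-base stretches are shared with Psme2, so its counts may hold reads of Psme2. Psmc3ip had 8.72, 9.76 and 14.4 CPM (adjusted p = 1.49e-12), and 385 bases of its exons lie opposite those of Mlx.

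**Figure D3:**
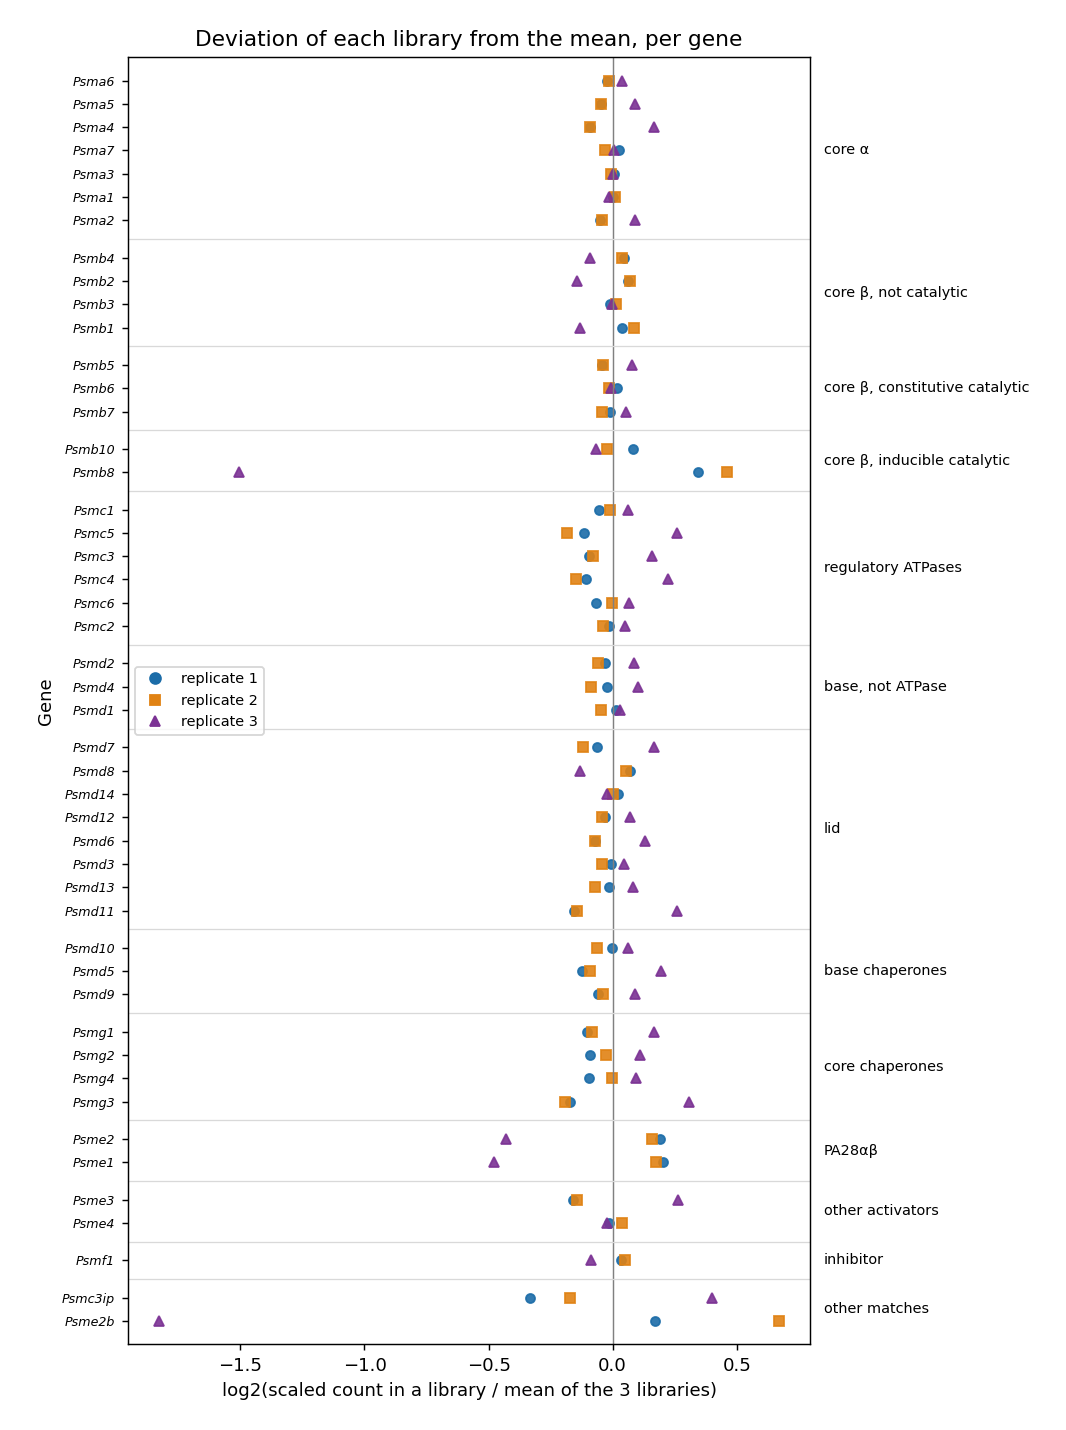
Deviation of each library from the mean of the 3 libraries, as log2 of scaled counts, for the 47 members that averaged 10 counts or more, grouped by role. Replicate 3 lies to the right for all 6 ATPases and to the left for Psmb8, Psme1, Psme2 and Psme2b, where its deviations were −1.51, −0.48, −0.43 and −1.83.

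Summed within each group, the PA28αβ genes stood at 115%, 113% and 72.7% of their mean in replicates 1, 2 and 3, the lowest point of the groups plotted. The core chaperones stood at 92.7%, 95.2% and 112% and the ATPases at 95.3%, 95.8% and 109%. The constitutive catalytic subunits stayed within 98.1% and 102%. The core β subunits that do not cut stood at 103%, 104% and 93.2%, and the α subunits at 98.6%, 98.2% and 103%. The sum of the inducible catalytic subunits, at 107%, 101% and 92.4%, follows Psmb10, which held nearly all of its counts.

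**Figure D4:**
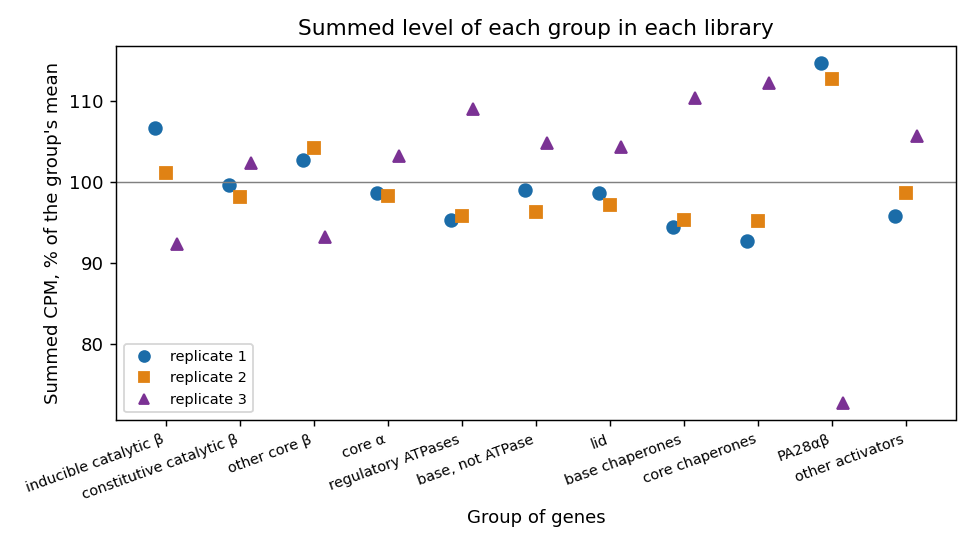
Summed CPM of each group of genes in each library, as a percentage of the group's mean over the 3 libraries, with each library as its own symbol and a line at 100%. Replicate 3 is the lowest point for PA28αβ at 72.7% and the highest for the ATPases at 109% and for the core chaperones at 112%.

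Proteasome parts and partners whose symbols do not start with Psm were checked from a list. All 11 found were detected and 8 varied, 6 of them with replicate 3 highest, against 46.6% of gene lines detected and 65.7% and 33.1% of all genes tested for the other counts. The ubiquitin receptor Adrm1 had 118, 115 and 133 CPM, the deubiquitinase Usp14 had 158, 165 and 188 CPM and the core maturation factor Pomp had 98.8, 105 and 102 CPM. Sem1, the smallest lid subunit and listed under its older symbol, had 103, 99.9 and 86.2 CPM, so that it was lowest in replicate 3 as Psmd8 was. Nfe2l1, which drives proteasome genes when degradation is impaired, had 333, 327 and 287 CPM, and its relative Nfe2l2 had 234, 232 and 207 CPM. Both varied with replicate 3 lowest, the opposite of most subunit genes. Of the 5 genes on their list, 4 varied, 3 with replicate 3 lowest and 1 with it highest. The shares of all genes tested were 65.7%, 31.5% and 33.1%. Foxo4 (45.5, 41.6 and 21.8 CPM) was also lowest in replicate 3, Ngly1 (15.7, 15.2 and 19.4 CPM) was highest there and Ddi2 did not pass the test. Of the 10 shuttle and ubiquitin genes, all were detected and varied, 6 with replicate 3 lowest and 3 with replicate 3 highest, against 65.7%, 31.5% and 33.1% of all genes tested.

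Genes that act with the inducible subunits in peptide loading and interferon-γ signalling were set beside them. All 8 peptide loading genes varied and all 8 were lowest in replicate 3, against 65.7% and 31.5% of all genes tested, with Tap1 at 3.97, 3.24 and 1.32 CPM and Tap2 at 5.94, 5.69 and 2.11 CPM. Of 8 interferon-γ pathway genes, 7 were tested and varied, 5 of them with replicate 3 lowest, against the same 65.7% and 31.5%. Irf1, the transcription factor that induces Psmb9 and Tap1, had 38.6, 37.7 and 17.4 CPM, and Jak2, a kinase of the receptor, had 56.2, 58.2 and 33.8 CPM. The class I transactivator Nlrc5 (9.75, 10.2 and 12.7) was highest in replicate 3, and Jak1 (161, 171 and 169) was lowest in replicate 1. These lists were chosen with earlier results of these libraries known, so their direction is not independent evidence.

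Blood cells carry immunoproteasomes without stimulation, so their markers were looked at beside these values. Of 8 macrophage and microglia markers, 1 was detected, Cd68 at 5.16, 4.79 and 3.34 CPM, while Aif1 and Adgre1 had 0 counts and the summed level of the list was 5.77, 5.07 and 4.14 CPM. That sum follows Cd68. Among the markers below detection, Ptprc (12, 4 and 9 counts) was highest in replicate 1. By CPM, Csf1r (7, 3 and 10 counts), Itgam (1, 1 and 4), Cx3cr1 (2, 0 and 2) and P2ry12 (0, 0 and 1) were highest in replicate 3. All of these averaged under 10 counts and were not tested between libraries. None of 8 lymphocyte markers was detected, and their sum was 0.389, 0.138 and 0 CPM. Of 6 endothelial markers, Cdh5 (380, 371 and 303 CPM) and Kdr (1.11, 1.07 and 2.64 CPM) were detected, Pecam1 had at most 0.111 CPM and Cldn5 had 0 counts. The part of such cells in the levels of Psmb8 and Psmb9 was not tested.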

How the data were processed

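Each SB28 RNA-seq library used 1 µg of total RNA and a TruSeq kit, per the labels' protocols. The authors deposited raw read counts per gene symbol, one table per library. Per the submitters' processing notes, Bowtie2 2.2.4, HTSeq and the mm10 assembly were used, and no role, option or strand setting is given for them. The 5 summary lines of each file were left out of all totals. Symbols were matched to GENCODE M21 on GRCm38 for exon length and position, 23350 directly, 677 through RefSeq synonyms and 394 not at all, and all 50 members matched. The members, lists, pairs and tests were chosen with earlier results of these data known.

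CPM was computed over counts assigned to genes and divided by the union exon length in kb for comparisons between genes. For 12 gene pairs the log2 ratio was taken within each library with 0.5 counts added. The exact permutation test by flipping signs, two-sided, gave p = 0.25 for every pair and both list differences, the smallest value 3 libraries allow, so pairs were read against the spread. Variation between libraries was tested on the counts with a chi-square test with 2 degrees of freedom on TMM-scaled library sizes (edgeR 4.0.16, R 4.3.3), for genes averaging 10 counts or more, and Benjamini-Hochberg adjustment (threshold 0.05) ran over all genes tested. With 1 group, no contrast between conditions could be fitted. The chi-square step was tested on simulated data. Intervals and the limit of 3 counts cover counting error only, since reads without molecular identifiers may be copies made by PCR. Replicates 1 and 2 differed in 256 of 12746 genes and were counted as 2 samples, with their average as an alternative. Every member may be named, and other genes only from the chosen lists. Alternatives were other gene lengths, pseudocounts, detection minimums, count filters, size factors from DESeq2 1.42.0, a likelihood ratio test and leaving out each replicate. The main transcript is the longest one that APPRIS marks as principal, an alternative chosen after seeing the data. Sequence copies were counted as 50-base stretches of a gene's transcripts found in transcripts of genes elsewhere. A further promoter motif that was searched is not reported here. Python 3.11.15, numpy 2.4.6, scipy 1.17.1 and pandas 2.3.3 were used. Exome sequencing of the line was not analysed here.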

Additional observations from a re-analysis of the deposited data

How the results depend on the processing

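Of 148 alternative values over 19 results, 137 were taken as the same as the main value. For ratios and median differences this meant the same direction and side of the call. For counts of members it meant a count within 1.5-fold of the main one. Without length correction, the difference of Psme4 to Psme3 turned to 0.90 and that of the regulatory to the core subunits to 0.16, while that of Psme1 to Psme3 became larger than the spread at −1.45. With the longest or the main transcript length, Psme2 to Psme3 turned to 0.31 and Psme4 to Psme3 was no longer larger than the spread at −0.39. Psme1 to Psme3 came to −0.19 with the main transcript length, with libraries on both sides of 0. Leaving out each replicate, Psme1 to Psme3 ran from −1.22 to −0.67 and Psme2 to Psme3 from −0.60 to −0.078, both larger than the spread without replicate 3. The count of varying members ran from 0 to 36 and that at 1.5-fold or more from 0 to 5, with 0 without replicate 3, where only the libraries that lie close together remain. Beyond these effects of leaving out a library or changing a length, the cause was not tested. No paired analysis was possible because there is 1 group. Psmb9, Psmb11 and Psma8 rest on 13, 2 and 0 counts, so depth limits their values.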
